A study of Homo sapiens with 115 samples.

Results

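The respiratory chain of the inner mitochondrial membrane passes electrons from NADH and succinate to oxygen, and the proton gradient built on the way drives ATP synthase. Complex I oxidizes NADH, complex II (succinate dehydrogenase) oxidizes succinate and also works in the tricarboxylic acid cycle, complex III passes electrons from ubiquinol to cytochrome c, complex IV (cytochrome c oxidase) reduces oxygen, and complex V (ATP synthase) makes ATP. Complexes I, III, IV and V hold subunits from both the nuclear and the mitochondrial genome, whereas all subunits of complex II are nuclear. The nuclear genes of these 5 complexes were followed here in single HCT116 colorectal cancer cells before and after radiation. The members were the rows whose symbols begin with NDUFA, NDUFB, NDUFC, NDUFS, NDUFV, UQCR, COX4I, COX5, COX6, COX7, COX8 or ATP5, together with SDHA, SDHB, SDHC, SDHD and CYC1. Assembly factors, pseudogenes, antisense transcripts and numbered extra copies were left out, and no measured value entered the choice. Out of 43386 rows, 91 were members, namely 38 of complex I, 4 of complex II, 10 of complex III, 19 of complex IV and 20 of complex V. NDUFA4 and its paralogue NDUFA4L2 were counted with complex IV, of which NDUFA4 is now known to be a subunit. The 13 subunits encoded by the mitochondrial genome were not analysed here.

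The table held full-length single-cell RNA-seq read counts without molecular identifiers for cells aspirated singly under a microscope, from a pair of sublines with intact (p53+/+, 72 cells) or deleted p53 (p53-/-, 43 cells). Unirradiated cells [N] numbered 6 p53+/+ and 7 p53-/- cells and are listed at day 0; the labels give 8 Gy for every cell, and the study describes [N] as untreated. Pre-budding radiation-tolerant persister (RTP) cells [P] were collected on day 7 after a single 8 Gy dose (6 and 11 cells), budding RTP cells [B] on day 10 (28 and 8 cells), their newly budded small progenies [S] on day 10 (21 and 9 cells), and repopulated cells [R] on day 30 (11 and 8 cells). These days are those of the labels, and a figure legend of the study gives day 9 for [B] and [S]. The sublines came from homologous recombination and each genotype is 1 subline, so that the loss of p53 and any other difference between the sublines cannot be told apart. The study's text divides the cells between the sublines slightly differently from the labels, which were followed here, so a few cells may belong to the other line. CDKN1A, the p53 target that encodes p21, had a median level of 988 CPM (counts scaled to the total of the cell or sum) in p53+/+ cells and of 172 CPM in p53-/- cells. In [N] cells alone the medians were 72.4 CPM in p53+/+ and 83.8 CPM in p53-/- cells. The p53+/+ median was thus higher in the irradiated stages only. Depth was 34238237 counts in the median cell and spanned 4056329 to 100173192. Of 11 epithelial markers 9 or 10 had counts in each stage, at a summed 1977 to 34489 CPM per cell, whereas 6 fibroblast markers reached at most 62.3 CPM, 6 leukocyte markers 120 CPM and 4 endothelial markers 17.9 CPM. 

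Cell names begin with 19 different prefixes, whose meaning the labels do not give. [N] cells carried 2 prefixes, of which 1115 was shared with [P] cells alone, and the prefixes of [R] cells occurred in no other stage. Stage and prefix therefore cannot be told apart when [B] or [S] is compared with [N], or [R] with any stage. The 6 p53-/- cells of prefix 1206 (4 [P], 1 [B] and 1 [S]) stood apart: the members summed to 28494 to 73027 CPM in them, with a median of 51873 CPM, against a median of 27842 CPM in the other 109 cells. The 3 of them with the highest levels had 11184 to 11657 genes detected, against a median of 16333 over all [P] cells. Values without prefix 1206 are given beside some of the results they move. Other levels moved too, such as COX4I1 from 1956 to 1407 CPM and ATP5F1B from 1203 to 1594 CPM in p53-/- [P] cells.

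Cells of 1 stage and line are not independent replicates, so their counts were added up to 10 sums, 1 for each stage and line, and every stage was represented by n = 2 sums. A cell with more counts weighs more in its sum. Gene values of sums are listed in the stage order [N], [P], [B], [S], [R]. Differences between stages were tested with edgeR's quasi-likelihood test over 19894 genes, with Benjamini-Hochberg adjustment and a threshold of 0.05, and 86 of the 91 members passed the filter on low counts. The biological coefficient of variation was 0.751, and the standard error (SE) is given with each fold change.

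Nuclear respiratory genes are known targets of a few promoter-binding factors, among them nuclear respiratory factor 1, ETS factors of the GABP type and YY1. Promoters from 250 bases before to 50 bases after the start site (RefSeq, GRCh38.p14) matched 71 of the 91 members by symbol. Either strand was searched for the consensus of nuclear respiratory factor 1, for CCGGAAG (ETS) and for AAGATGG (YY1), 3 motifs of which the ETS and YY1 motifs can overlap by the letters AAG. At least 1 of them lay in 36 of the 71 member promoters (50.7%), in 18.04% of all 27305 promoters of the same length and in 26.2% of those of tested genes. The consensus of nuclear respiratory factor 1 was found in 14.1% of member promoters, in 2.96% of all promoters and in 4.92% of those of tested genes. The ETS motif was found in 28.2%, 10.7% and 17.2%, and the YY1 motif in 22.5%, 6.06% and 7.01%, in the same order. Complex IV stood at 0 of 14 promoters for nuclear respiratory factor 1 and complex V at 3 of 14. Promoters, up to 25 bases after the start site, are printed of SDHD and UQCRC2, which DESeq2 called lower in [P] and [B], of NDUFA9, which it called lower in [B], and of NDUFB1, the member at 10 CPM or more with the highest fold change in [B] and [S]. Capitals mark the motifs.
SDHD, chr11:112086623-112086897, plus strand: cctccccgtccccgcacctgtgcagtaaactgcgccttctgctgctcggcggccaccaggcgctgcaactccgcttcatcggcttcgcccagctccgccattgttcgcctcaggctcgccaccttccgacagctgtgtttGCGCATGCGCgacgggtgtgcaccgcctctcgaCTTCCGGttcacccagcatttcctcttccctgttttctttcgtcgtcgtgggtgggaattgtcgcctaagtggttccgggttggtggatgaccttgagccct
UQCRC2, chr16:21953111-21953385, plus strand: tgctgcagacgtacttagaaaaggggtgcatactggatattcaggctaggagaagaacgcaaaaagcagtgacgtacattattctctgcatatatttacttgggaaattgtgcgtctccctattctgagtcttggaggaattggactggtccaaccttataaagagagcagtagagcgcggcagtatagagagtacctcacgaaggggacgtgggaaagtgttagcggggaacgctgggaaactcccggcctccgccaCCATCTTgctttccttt
NDUFA9, chr12:4648864-4649138, plus strand: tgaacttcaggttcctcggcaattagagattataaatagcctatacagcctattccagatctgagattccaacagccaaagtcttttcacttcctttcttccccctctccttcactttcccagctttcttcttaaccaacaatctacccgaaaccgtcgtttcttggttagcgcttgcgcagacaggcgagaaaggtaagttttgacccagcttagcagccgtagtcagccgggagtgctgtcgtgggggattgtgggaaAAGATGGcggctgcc
NDUFB1, chr14:92121682-92121956, minus strand: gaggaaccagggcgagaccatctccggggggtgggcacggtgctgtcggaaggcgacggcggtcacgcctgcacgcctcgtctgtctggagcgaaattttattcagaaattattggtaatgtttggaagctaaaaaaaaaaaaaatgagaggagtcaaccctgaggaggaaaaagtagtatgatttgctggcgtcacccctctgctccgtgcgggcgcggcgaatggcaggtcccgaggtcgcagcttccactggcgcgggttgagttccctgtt

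In SDHD the consensus of nuclear respiratory factor 1 begins 110 bases before the start site and a reverse ETS motif 77 bases before it. UQCRC2 holds a reverse YY1 motif 8 bases after the start and NDUFA9 a forward one 10 bases after it, while none of these letters was found in the window of NDUFB1. The printed promoters do not stand for all lower members. SDHA and NDUFA5, which DESeq2 also called lower in [B], held none of the motifs, and UQCRC1, likewise called lower, held the YY1 motif. Between [B] and [N] the 20 members with the ETS motif had a median of 0.16 on the log2 scale and the 46 without it -0.18, and the 15 with the YY1 motif had -0.31 and the 51 without it 0.05. These medians are descriptions, and a match is not a bound site.

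The members were abundant. A count was found in every cell for 78 of them and in at least 100 cells for 81, and 75 averaged at least 100 CPM over the 10 sums. The highest mean levels were those of ATP5F1B, the catalytic beta subunit of ATP synthase, at 1800 CPM in complex V, COX4I1 at 1255 CPM in complex IV, NDUFB9 at 848 CPM in complex I, CYC1, the cytochrome c1 of complex III, at 748 CPM, and SDHB, the iron-sulfur subunit of complex II, at 368 CPM. Per kilobase of the canonical annotated transcript, COX4I1 led with 1645 CPM, followed by COX6A1 at 1494, COX7A2 at 1398, NDUFB9 at 1228 and NDUFB8 at 1056, and ATP5F1B stood at 1023. These values depend on the annotated length. NDUFA3 was listed near 0.1 CPM or below in every sum, and its 9 numbered copies at 0, so its level cannot be read from this table. NDUFA6 had 33.2 to 99.3 CPM and its 3 numbered copies together 100.3 to 271 CPM, so that its reads were split among them.

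Together the members took up 1.51% to 7.30% of the counts of a cell. In p53+/+ cells the median [N] cell had a summed level of 40139 CPM (range 24127 to 51124), the median [P] cell 25618 (21155 to 28755), [B] cell 30591 (20134 to 52579), [S] cell 31454 (15066 to 66983) and [R] cell 25208 (22874 to 28454). In p53-/- cells the medians were 25542 CPM for [N] (22600 to 45034), 30733 for [P] (22442 to 71638), 23833 for [B] (17071 to 73027), 26916 for [S] (17573 to 40340) and 22115 for [R] (20365 to 29472). The ranges of all stages overlapped in both lines. [R] cells were the most alike, with the narrowest range in both lines, while [S] cells spread widest in the p53+/+ line and [B] cells in the p53-/- line. Each line of [R] held only 1 name prefix, so stage and prefix cannot be told apart in its range. The p53-/- [B] range rests on 1 cell of prefix 1206, and the next cell had 27957 CPM.

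**Figure D1:**
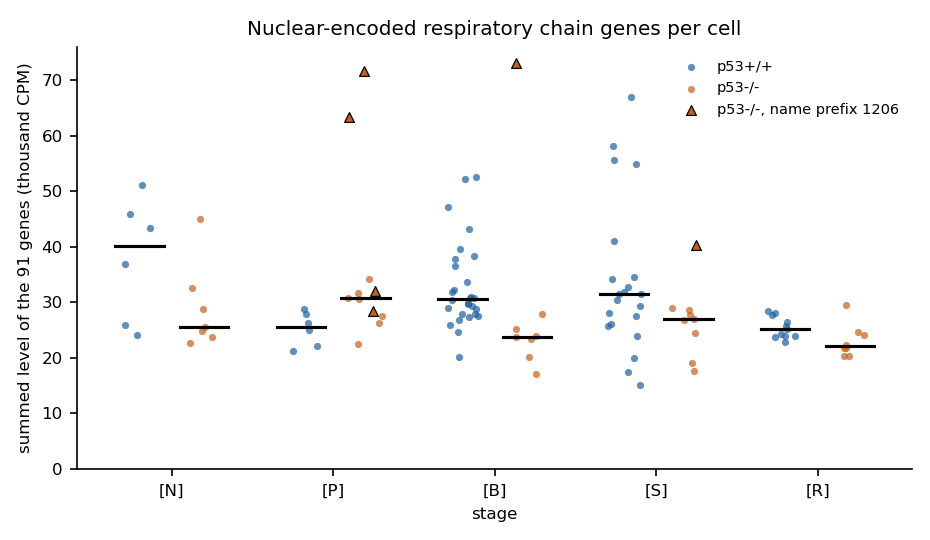
Summed level of the 91 genes in each cell (vertical axis in units of 1000 CPM, starting at 0) by stage and line; black bars are medians and triangles mark the 6 p53-/- cells of name prefix 1206. Cells of [R] lie between 20365 and 29472 CPM, whereas [B] reaches 73027 CPM in 1 cell of prefix 1206.

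The level in unirradiated p53+/+ cells differed by name prefix. The 5 [N] cells of prefix 0109 ran from 25886 to 51124 CPM with a median of 43313, and the 1 [N] cell of prefix 1115 had 24127 CPM, inside the range of the 6 [P] cells of the same prefix. The high median of p53+/+ [N] cells was thus that of prefix 0109. Over all cells, which share prefixes and stages, Spearman's rho of the summed level was -0.23 with depth, -0.13 with the number of genes detected and -0.23 with mitochondrial ribosomal RNA. Within stages it was stronger in places: rho with the genes detected was -0.74 in the 17 [P] cells, rho with depth -0.56 in the 13 [N] cells and rho with mitochondrial ribosomal RNA -0.52 in the 30 [S] cells. The part of these measures in the differences between stages was not tested.

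The complexes did not keep a fixed proportion. Across all 72 p53+/+ and 43 p53-/- cells the summed level of complex I went with that of complex III (Spearman's rho 0.90), complex IV (0.87) and complex V (0.78), but not with that of complex II (-0.03, and 0.02 without prefix 1206). Within the 13 [N] cells rho between complexes I and II was 0.72, within the 36 [B] cells 0.13 and within the 30 [S] cells -0.16. These are descriptions over cells that share a depth scale.

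Complex II took 4.48% of the members' counts in p53+/+ [N] cells and 4.74% in p53-/- [N] cells. In [P] its share was 4.47% and 2.52%, in [B] 3.02% and 2.32%, in [S] 2.24% and 3.18%, and in [R] 4.83% and 4.52%. Both sums of [B] and both of [S] lay below those of [N] and [R], and [P] was low in the p53-/- line only. Without prefix 1206 the p53-/- shares were 3.36% for [P], 2.90% for [B] and 3.44% for [S]. Complex IV moved the other way, with 18.3% and 18.4% in [N], then 19.7% and 25.6% for [P], 22.7% and 25.3% for [B], 23.1% and 22.2% for [S], and 16.7% and 19.3% for [R]. Without prefix 1206 its p53-/- shares were 25.2%, 24.6% and 21.6% for [P], [B] and [S]. No test was run on these shares.

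**Figure D2:**
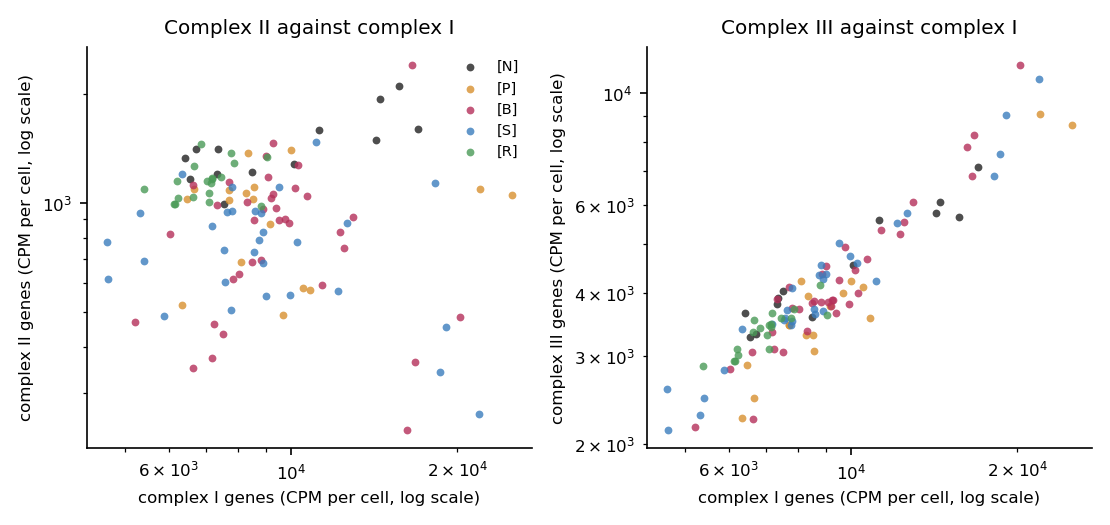
Summed level of complex II (left) and complex III (right) against that of complex I in each cell, coloured by stage, in CPM on log axes. Complex III follows complex I (Spearman's rho 0.90), whereas complex II does not (rho -0.03), and the cells with the most complex I transcripts outside [N] include cells with few complex II transcripts.

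Pre-budding cells were compared with unirradiated cells to ask what had changed in the first week after 8 Gy. The respiratory genes as a whole differed little on average, and their direction was opposite in the lines. Over the 86 tested members the median log2 fold change was -0.13, with 35 above 0, against 0.15 over all genes. The log2 CPM difference had a median of -0.77 in p53+/+ cells, with 1 member above 0, and of 0.55 in p53-/- cells, with 64 above 0. edgeR called 0 members at an adjusted p under 0.05 (0.0201% of all genes tested were called), 9 were lower and 0 higher at an unadjusted p under 0.05 (all genes 4.9% lower and 7.01% higher), and DESeq2 on the same sums called 2, SDHD and UQCRC2, both lower (3.99% of all genes). Below 0 in both lines were 21 members (24.9% of all genes). With library size as the only scaling the median of the members was 0.03 instead of -0.13.

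These directions moved with the name prefix. Within prefix 1115 the median difference of [P] from [N] was 0.22 in p53+/+ cells (6 cells against 1) and 0.53 in p53-/- cells (3 against 2), with 0.51 and 0.16 over all genes, on the scale of plain CPM. Without the cells of prefix 1206, the p53-/- median on that scale went from 0.67 to 0.24, below the 0.34 of all genes, and the median of the edgeR fit from -0.13 to -0.34. Leaving out the p53+/+ sum of [N] gave 0.21, and leaving out that of [P] 0.26, so the sign of the median over both lines rests on single sums.

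The complexes differed in this comparison. The median log2 fold change was -0.18 in complex I, -0.71 in complex II, -0.09 in complex III, 0.11 in complex IV and -0.21 in complex V. Without prefix 1206 these were -0.45, -0.76, -0.52, -0.19 and -0.34, so that complex IV changed sign. In complex I the 7 nuclear core subunits, which hold the flavin and the iron-sulfur clusters between them, had a median of -0.69 and none was above 0, and the 31 accessory subunits had -0.12. In complex V the 5 subunits of the catalytic F1 head had -0.65, the 4 of the peripheral stalk -0.24 and the 3 genes of the c ring -0.59. The 9 members lower at an unadjusted p under 0.05 included, beside SDHD, UQCRC2, CYC1 and ATP5F1A described below, UQCRC1, NDUFA5, SDHA and NDUFA9.

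SDHD, the membrane anchor of succinate dehydrogenase whose promoter is printed above, showed the lowest fold change of all members in [P], [B] and [S] against [N]. Its level was 609, 247, 199, 165 and 270.2 CPM in the p53+/+ sums from [N] to [R], and 373, 209, 149.9, 180.1 and 269 CPM in the p53-/- sums. Both [N] sums were above all 8 others. Without prefix 1206 the p53-/- sums of [P], [B] and [S] had 257, 150.4 and 189 CPM, and the log2 fold changes in [P], [B] and [S] were -1.13, -1.54 and -1.40. The log2 fold change was -1.26 in [P] (SE 0.34, edgeR adjusted p 0.286, DESeq2 adjusted p 0.0220), -1.59 in [B] (SE 0.34, edgeR 0.0642, DESeq2 0.000688), -1.499 in [S] (SE 0.34, edgeR 0.200, DESeq2 0.00285), and -1.04 for [R] (edgeR adjusted p 0.563). Taking the line as a block, edgeR called [B] versus [N] at an adjusted p of 0.0220, and on 40 sums by stage, line and name prefix it did not (log2 fold change -1.39, edgeR adjusted p 0.0832). Per cell, the median was 405 CPM for [N] (251 to 1020), 220.0 for [P] (103.5 to 347), 181 for [B] (11.4 to 756), 155 for [S] (7.85 to 422) and 266 for [R] (168 to 383). The ranges overlapped in every pair of stages.

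The name prefix moved with SDHD as well. Among p53-/- cells of prefix 1115 the 2 [N] cells had 251 and 374 CPM and the 3 [P] cells 239 to 347 CPM, and the log2 difference of the sums was 0.01. Among p53+/+ cells of that prefix, the single [N] cell had 405 CPM and the 6 [P] cells 220.0 to 295 CPM, a log2 difference of -0.71. The p53+/+ [N] cells of prefix 0109 reached a median of 665 CPM. For UQCRC2 the same 2 differences were -0.48 and -1.13. The part of the prefix in the results against [N] was not tested.

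UQCRC2, a core subunit of complex III, had 261, 155, 152, 145 and 250.3 CPM in the p53+/+ sums from [N] to [R], and 259, 129.8, 130.1, 190.0 and 227 CPM in the p53-/- sums. The [N] sums and the [R] sums were above all sums of [P], [B] and [S]. The log2 fold change was -1.01 in [P] (SE 0.27, edgeR adjusted p 0.286, DESeq2 0.0222) and -0.98 in [B] (SE 0.27, edgeR 0.112, DESeq2 0.0147). CYC1 stood at -1.15 in [P] (edgeR adjusted p 0.315), and ATP5F1A, the alpha subunit of the F1 head, at -1.10 (edgeR adjusted p 0.361). At the other end were NDUFC2-KCTD14 at 1.17, COX6B2 at 1.17 and NDUFB1 at 0.70 (edgeR adjusted p 0.606 to 0.869), each lower in p53+/+ and higher in p53-/- cells. Without prefix 1206 NDUFC2-KCTD14 was at 0.03, COX6B2 at -0.0017 and NDUFB1 at 0.36. The readthrough NDUFC2-KCTD14 shares exons with NDUFC2, and COX6B2 is treated with the rare isoforms below.

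Budding cells were compared with unirradiated cells next. Here too the members scattered around 0, with a median log2 fold change of -0.02 (43 above 0, 43 below, and 36 below 0 in both lines, where 29.1% of all genes lay) against 0.20 over all genes, but the complexes separated. Complex II had a median of -0.87, complex I -0.19, complex III 0.15, complex IV 0.20 and complex V 0.08. In complex II, SDHC differed by line. It had 247, 392 and 306 CPM in the p53+/+ sums of [N], [P] and [B], and 306, 210 and 169 CPM in the p53-/- sums. Without prefix 1206 complex III was at -0.09 and complex V at -0.01. The median over all members was 0.09 when library size alone set the scale, and without the cells of prefix 1206 it was -0.14. It was 0.38 without the p53+/+ sum of [N] and -0.29 without that of [B]. edgeR called 0 members (0.658% of all genes), 13 were lower and 2 higher at an unadjusted p under 0.05 (all genes 9.16% and 9.37%), and DESeq2 called 7, all lower (10.8% of all genes). With the line as a block edgeR called 3, SDHD, ATP5F1A (adjusted p 0.0374) and NDUFA5 (adjusted p 0.0482), all lower (3.4% of all genes in either direction and 2.2% lower). On the 40 sums by name prefix it called 0 members (0.701% of all genes in either direction and 0.604% lower).

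The 7 members called by DESeq2 included SDHD and the flavoprotein SDHA of complex II, the core subunits UQCRC1 and UQCRC2 of complex III, and NDUFA5 and NDUFA9 of complex I. SDHA, which carries the succinate site, had 162, 136, 105.97, 110.3 and 249 CPM in the p53+/+ sums from [N] to [R], and 196, 93.5, 93.6, 125 and 211 CPM in the p53-/- sums. All sums of [P], [B] and [S] were below both [N] sums, and both [R] sums were above them. Up to 51.8% of the SDHA counts of a sum came from 1 cell. In p53+/+ [N] the deepest cell, of prefix 1115, had 238 CPM, and the 5 cells of prefix 0109 had 68.5 to 195 CPM. The place of that sum in this order thus rests largely on 1 cell. The log2 fold change of SDHA in [B] was -0.94 (SE 0.29, edgeR adjusted p 0.140, DESeq2 0.0354). SDHA has pseudogene rows in the table, which together held 10.2 to 28.2 CPM, so reads could be split between them.

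NDUFA9, an accessory subunit of complex I, had 320.4, 208, 188, 134 and 258 CPM in the p53+/+ sums from [N] to [R], and 295, 154, 114.50, 196 and 192 CPM in the p53-/- sums. Both [N] sums were above all others. The fold change in [B] was -1.10 (SE 0.36, edgeR adjusted p 0.157, DESeq2 0.0458) and in [S] -0.89 (edgeR adjusted p 0.340). In [B] NDUFA5, another accessory subunit, was at -1.05 (edgeR adjusted p 0.129, DESeq2 adjusted p 0.0292) and UQCRC1 at -1.07 (edgeR 0.112, DESeq2 0.0153).

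ATP5F1A had 1575, 879, 756, 957 and 1423 CPM in the p53+/+ sums from [N] to [R], and 1159, 538, 532, 815 and 863 CPM in the p53-/- sums. In both lines [P] and [B] were lowest and [N] highest. The log2 fold change in [B] was -1.18 (SE 0.41, edgeR adjusted p 0.174). ATP5F1B, its partner in the catalytic head, had 1987, 1836, 1653, 1319.5 and 2717 CPM in the p53+/+ sums from [N] to [R], and 2403, 1203, 1106, 1733 and 2044 CPM in the p53-/- sums. Its log2 fold change was -0.75 in [B] (edgeR adjusted p 0.298) and -0.04 in [R].

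NDUFB1, a small accessory subunit of complex I, went the other way. It had 45.7, 36.2, 87.4, 101.11 and 40.7 CPM in the p53+/+ sums from [N] to [R], and 41, 121, 115.16, 63.9 and 40.5 CPM in the p53-/- sums. All [B] and [S] sums and the p53-/- [P] sum were above both [N] sums, and the [R] sums were just below those of [N]. Without prefix 1206 the p53-/- sums of [P], [B] and [S] had 90.9, 69.7 and 55.7 CPM. The log2 fold change was 1.10 in [B] (SE 0.49, edgeR adjusted p 0.263, and 0.81 without prefix 1206) and 0.97 in [S] (SE 0.49, edgeR adjusted p 0.411), and neither tool called it. NDUFA4L2 and ATP5MGL, the other members at the upper end, rested on a few cells each and are described below.

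**Figure D3:**
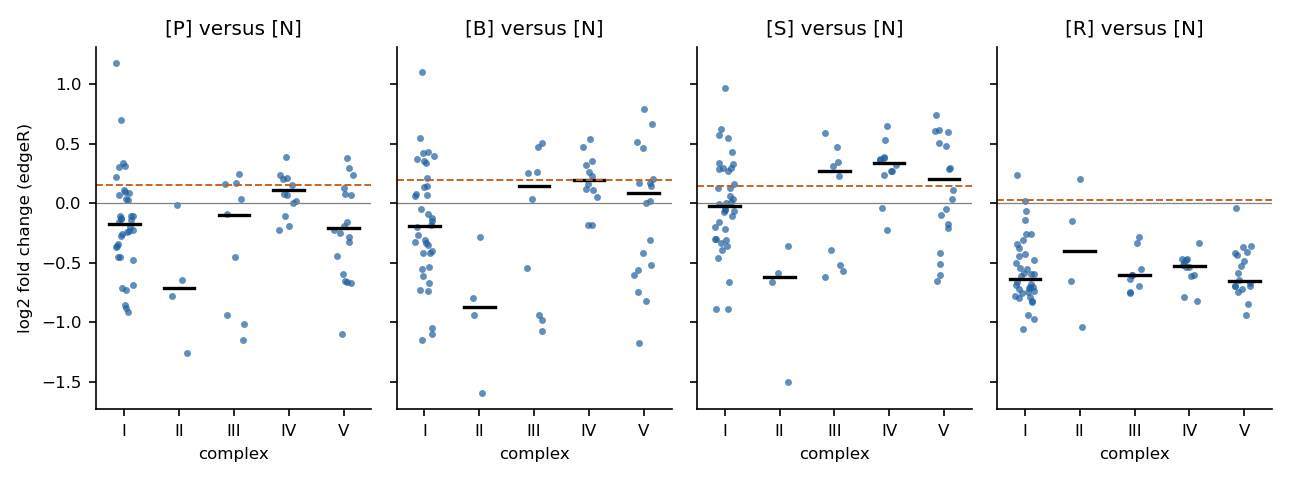
Log2 fold change (edgeR) of [P], [B], [S] and [R] against [N] by complex; points are the 80 members that averaged at least 10 CPM, black bars the medians over all tested members of a complex, and the dashed line the median over all genes. Complex II lies lowest in [P], [B] and [S], and in [R] all 5 medians are between -0.66 and -0.40.

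In newly budded progenies the members were again spread around the unirradiated level. The median log2 fold change against [N] was 0.05 (47 above 0) and that of all genes 0.15. It was -0.03 in complex I, -0.62 in complex II, 0.27 in complex III, 0.34 in complex IV and 0.20 in complex V. edgeR called 0 members (0.0704% of all genes), 4 were lower and 0 higher at an unadjusted p under 0.05 (all genes 5.49% and 7.84%), and DESeq2 called SDHD, which was lower (4.82% of all genes). NDUFA9 at -0.89 and NDUFA5 at -0.89 (edgeR adjusted p 0.340 and 0.299) were the next lowest. All 4 genes of complex II were below 0 in both lines. Of all members 32 were below 0 in both lines (27.6% of all genes). Their overall median was 0.48 without the p53+/+ sum of [N] and -0.33 without that of [S].

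Progenies were also compared with the budding cells they come from, and budding with pre-budding cells. In [S] versus [B] 67 of 86 members were above 0 with a median of 0.15 (all genes 0.01), and in [B] versus [P] 54 were above 0 with a median of 0.06 (all genes 0.02). Below 0 in both lines were 3 members in [S] versus [B] (28.1% of all genes) and 10 in [B] versus [P] (27.4%). With library size as the only scaling these medians were 0.03 and 0.0017. edgeR called 0 members in each (0% of all genes in both), 0 members had an unadjusted p under 0.05 in either direction (all genes 2.65% higher and 1.54% lower in [S] versus [B], 1.95% and 3.23% in [B] versus [P]), and DESeq2 called 0 (0.281% and 0.648% of all genes).

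[S] and [B] cells shared name prefixes, so they could be compared within them. In 7 prefixes of p53+/+ cells the median difference ran from -0.97 to 0.55 and was above 0 in 3, while that of all genes ran from -1.14 to 0.03. In 4 prefixes of p53-/- cells it ran from -0.50 to 0.57 and was above 0 in 3, and that of all genes from -0.26 to 0.57. On the scale of plain CPM the p53-/- median was -0.08, and 0.12 without prefix 1206. The prefixes thus gave both directions in both lines. In [B] versus [P] the lines differed, with 0.66 in p53+/+ and -0.39 in p53-/- cells. Within the prefixes shared by p53-/- cells of [B] and [P] the median was -0.32 in 1118 (all genes -0.14) and 0.18 in 1206 (all genes -1.62), each with 1 [B] cell. UQCRC1 at 0.50 and ATP5F1A at 0.57 were among the highest in [S] versus [B], and ATP5MF-PTCD1 at -0.37, NDUFC2-KCTD14 at -0.36 and ATP5MD at -0.18 were the lowest. In [B] versus [P] ATP5F1D was at 0.62 and NDUFAB1 at -0.33, and COX6B2 at -1.74 and NDUFC2-KCTD14 at -0.75 were the lowest (-0.41 and -0.21 without prefix 1206).

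In repopulated cells most respiratory genes had lower levels than in unirradiated cells, none of them by a called difference. Against [N] the median log2 fold change of the 86 members was -0.60, with 4 above 0, whereas over all genes it was 0.02. In 76 members (88.4%) the level was below [N] in both lines, against 28.3% of all genes. The complexes were close together, at -0.64 in complex I, -0.40 in complex II, -0.60 in complex III, -0.53 in complex IV and -0.66 in complex V. The line medians were -0.80 in p53+/+ and -0.36 in p53-/- cells, and with library size as the only scaling the median was -0.43. edgeR called 0 members (0% of all genes), 9 were lower and 0 higher at an unadjusted p under 0.05 (all genes 4.13% and 4.47%), and DESeq2 called 0 (2.08% of all genes). Without the p53+/+ sum of [N] the median was -0.21. Most cells of that sum had prefix 0109, but the 1 cell of prefix 1115 held 51580888 of its 146141551 counts. In summed level the [N] cells of prefix 1115 lay inside the range of [R] in both lines. They had 24127 CPM (p53+/+), and 24863 and 25542 CPM (p53-/-). Those of prefix 0109 ran from 25886 to 51124 CPM (p53+/+) and from 22600 to 45034 CPM (p53-/-).

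COX4I1, a regulatory subunit of cytochrome c oxidase, had 1358, 1041, 1419.9, 1614 and 743 CPM in the p53+/+ sums from [N] to [R], and 1063, 1956, 1389, 1176 and 791 CPM in the p53-/- sums. Both [R] sums were below all others. The log2 fold change of [R] was -0.82 against [N] (edgeR adjusted p 0.574) and -1.06 against [S] (edgeR adjusted p 0.223). NDUFB6 was at -1.06 against [N] (SE 0.41, edgeR adjusted p 0.563). NDUFS1, the largest core subunit of complex I, and SDHA were at 0.24 and 0.21 (edgeR adjusted p 0.854 and 0.884), and were the highest members at 10 CPM or more. The lowest fold changes, of ATP5MGL and NDUFA3, rest on levels under 0.2 CPM in every sum.

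Against [S], the progenies they follow, repopulated cells differed most. The median was -0.71 over the members (14 above 0) and -0.08 over all genes, and 70 of 86 members were below 0 in both lines (33.5% of all genes). The median was -1.02 in p53+/+ and -0.35 in p53-/- cells, and -0.51 with library size as the only scaling. It was -0.30 without the p53+/+ sum of [S]. By complex it was -0.67 in I, 0.34 in II, -0.96 in III, -0.87 in IV and -0.81 in V, so that complex II stood apart with all 4 genes above 0 in the fit over both lines. SDHC, 1 of the 4, had 181 CPM in [S] and 331 in [R] in p53+/+ cells, but 246 and 225 CPM in p53-/- cells. edgeR called 0 members (0.0201% of all genes) and DESeq2 0 (7.03% of all genes), while 26 members were lower and 1, SDHA, higher at an unadjusted p under 0.05 (all genes 9.01% and 6.11%). SDHA was at 0.79 (SE 0.29, edgeR adjusted p 0.250), NDUFS1 at 0.60 and ATP5F1B at 0.47. Since no [R] cell shares a prefix with another stage, stage and prefix cannot be told apart here.

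**Figure D4:**
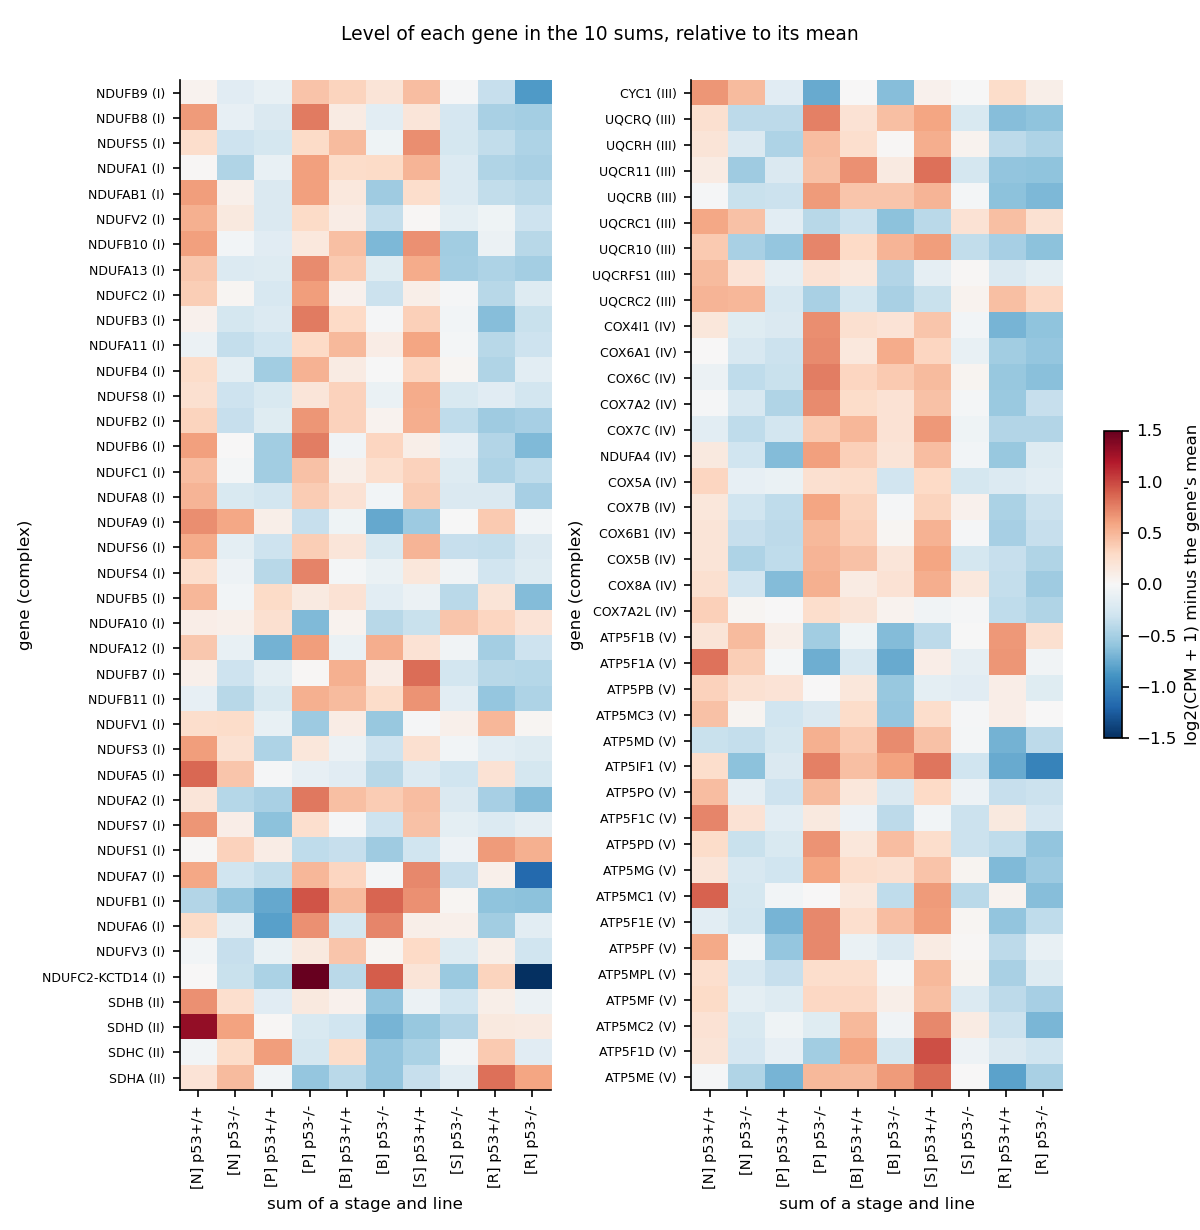
Level of all but 1 of the 80 members that averaged at least 10 CPM in the 10 sums, as log2(CPM + 1) minus the gene's mean over the sums (colour, red above and blue below), ordered by complex and level. The p53-/- sum of [P] is red for most genes and blue for SDHA, CYC1 and ATP5F1A, and both [R] sums are blue for most genes but not for SDHA and ATP5F1B.

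Members of different length behaved differently. Length is that of 1 annotated transcript per gene, the Ensembl canonical one in GENCODE, and runs from 276 to 11660 bases among the members. Which transcript forms the cells held was not examined. Among the 80 members at 10 CPM or more, transcript length and log2 fold change had a Spearman's rho of -0.47 in [P] and in [B], -0.52 in [S] and 0.19 in [R] against [N], and of 0.55 in [R] versus [S]. By line, p53+/+ first, rho was 0.04 and -0.53 in [P], -0.35 and -0.50 in [B], -0.53 and -0.40 in [S] and 0.30 and -0.11 in [R] against [N], and 0.56 and 0.41 in [R] versus [S]. The value in [P] thus came from the p53-/- line, and without prefix 1206 rho there was -0.31 over both lines. Over 15550 genes at the same level the fitted values for [P], [B], [S] and [R] against [N] and for [R] against [S] gave 0.13, -0.06, -0.02, 0.11 and 0.11. The 37 members under 700 bases had a median of 0.29 in [S] versus [N] and the 23 over 1500 bases -0.36. In [R] versus [S] the short members were at -0.87 with 0 above 0 and the long ones at -0.06. All 1072 genes under 700 bases were at 0.45 in [S] versus [N] and at -0.75 in [R] versus [S], and the 12392 genes over 1500 bases at 0.05 and 0.08. Short transcripts therefore shifted in the same direction among all genes as among the members. SDHA has 2693 bases, NDUFA9 8356 and ATP5F1A 5761, while NDUFB1 has 317, and the part of length in the differences between complexes was not tested. These are correlations across genes, which are not independent replicates.

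**Figure D5:**
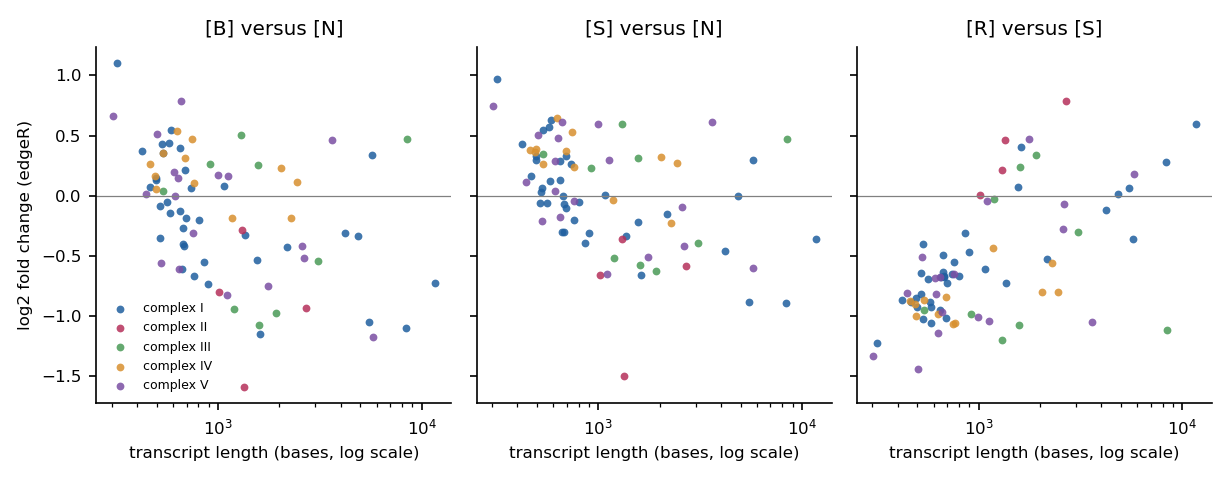
Log2 fold change (edgeR) against transcript length (bases, log axis) for the 80 members at 10 CPM or more, coloured by complex, in [B] versus [N], [S] versus [N] and [R] versus [S]. Spearman's rho is -0.47, -0.52 and 0.55.

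The lines were compared with the stage as a block, over 5 stages. In [N] the lines carried the same name prefixes. They shared only prefix 1115 in [P], only prefix 1118 in [B], some prefixes in [S] and none in [R]. Line and prefix therefore cannot be told apart in [R], and only in part in [P], [B] and [S]. The part of the prefix in the line differences, here and below, was not tested. The p53-/- cells had slightly lower levels of the respiratory genes, with a median log2 fold change of -0.22 (13 of 86 above 0) against -0.0047 over all genes. The median difference was -0.51 for [N], 0.71 for [P], -0.52 for [B], -0.63 for [S] and -0.09 for [R], so that [P], the stage with 4 cells of prefix 1206, went the other way. Without that prefix the median over the stages was -0.36. edgeR called 0 members (0.206% of all genes), 9 were lower and 0 higher at an unadjusted p under 0.05 (all genes 7% and 6.91%), and DESeq2 called 6, of which 5 were lower and COX6B2 higher (8.22% of all genes). On 40 sums by stage, line and name prefix edgeR called 10 members, all lower (6.47% of all genes in either direction and 4.11% lower), among them ATP5MC1, ATP5MC2 and ATP5F1D.

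Of the 5 lower genes 4 belong to ATP synthase. ATP5MC1, 1 of 3 genes that encode the same c subunit of the rotor ring, had 735, 388, 444, 618.79 and 412 CPM in the p53+/+ sums from [N] to [R], and 331, 401, 304, 301 and 255 CPM in the p53-/- sums. The p53-/- sum was lower in every stage except [P]. Its log2 fold change was -0.79 (SE 0.21, edgeR adjusted p 0.135, DESeq2 0.0106), and -0.92 without prefix 1206, where edgeR called it at an adjusted p of 0.0455 (0.752% of all genes in either direction and 0.452% lower). ATP5MC2 was at -0.53 (edgeR adjusted p 0.185, DESeq2 0.0496) and ATP5MC3 at -0.42 (edgeR adjusted p 0.390). ATP5F1A was at -0.63 (SE 0.16, edgeR adjusted p 0.117, DESeq2 0.00424) and lower in p53-/- cells in all 5 stages. ATP5F1D, the delta subunit, was at -0.68 (edgeR adjusted p 0.165, DESeq2 0.0269) and NDUFB5 of complex I at -0.56 (edgeR adjusted p 0.158, DESeq2 0.0339), both also lower in all 5 stages. NDUFB10 at -0.71 and ATP5MF-PTCD1 at -0.74 were among the 3 lowest, and NDUFA6 at 0.38 among the 3 highest with the rare isoforms. In all, 9 of 86 members were lower in p53-/- cells in every stage, against 7.01% of all genes.

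Several subunits of cytochrome c oxidase have a second isoform that is used in muscle, testis, lung or hypoxia. HCT116 cells used the common ones. COX6A1 averaged 802.2 CPM, COX7A2 646, NDUFA4 436, COX7B 393, COX6B1 350.3 and COX8A 309.7 CPM, and all were counted in every cell. Their partners COX4I2 and COX7B2 had no count, COX8C had counts in 1 cell, COX6A2 in 3, COX7A1 in 5, NDUFA4L2 in 21 and COX6B2 in 38 cells, all under 1 CPM on average. COX4I2, COX7B2, COX8C, COX6A2 and COX7A1 were the 5 members that did not pass the filter. Counting error alone allows up to 3 counts where none was found, which is 0.00336 to 0.0205 CPM in the 10 sums. Of the 3 c subunit genes ATP5MC3 averaged 518 CPM, ATP5MC1 419 and ATP5MC2 272, or 200.2, 649 and 430.0 CPM per kilobase. UQCRHL, an intronless copy of UQCRH, had 9.02 CPM beside 471 CPM of UQCRH, and reads of the near-identical pair may be split.

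COX6B2, the testis form, had 1380 counts in p53-/- [P] cells, of which 639 came from 1 cell of prefix 1206, and 3 counts in p53+/+ [P] cells. Its other sums held 22 to 149 counts in p53+/+ and fewer than 300 in p53-/- cells. Its log2 fold change between the lines was 2.98 (SE 1.38, edgeR adjusted p 0.381, DESeq2 0.0302). NDUFA4L2, a target of hypoxia-inducible factor, had 953 counts in p53-/- [S] cells that all came from 1 of 9 cells, 276 counts in p53-/- [R] cells and fewer elsewhere, with 0 in p53-/- [N] cells. Its high fold changes in [S] versus [N] (5.34, edgeR adjusted p 0.384) and [S] versus [B] (4.08) rest on that cell. ATP5MGL, a copy of ATP5MG, had 0 counts in both [R] sums, 8 and 0 in [N] and 1 to over 100 in the other sums.

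The rest of the mitochondrial energy system was looked at through 5 lists. The 17 genes of pyruvate dehydrogenase and the tricarboxylic acid cycle had medians of -0.62 for [P], -0.77 for [B], -0.81 for [S] and -0.21 for [R] against [N], and of 0.41 in [R] versus [S]. In [B] edgeR called 0, although 8 were lower and 0 higher before adjustment (p under 0.05, all genes 9.16% and 9.37%), and DESeq2 called 5, all lower (10.8% of all genes). DLAT, the acetyltransferase of pyruvate dehydrogenase, had 89.6 and 124 CPM in [N] (p53+/+ and p53-/-), 78.7 and 61.7 for [P], 45.6 and 55.3 for [B], 48.9 and 53.5 for [S] and 128 and 127 for [R]. Its log2 fold change was -1.20 in [B] versus [N] (edgeR adjusted p 0.0730, DESeq2 0.00136) and 1.13 in [R] versus [S]. Like the 4 genes of complex II, which serve the same cycle, these genes were lower in [B] and [S] than in [N] and [R] by their medians. This did not hold for every gene and line, since SDHC had 306 CPM in p53+/+ [B] and 247 CPM in p53+/+ [N].

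The 12 genes of ubiquinone synthesis and cytochrome c had medians of -0.67 for [P], -0.56 for [B], -0.39 for [S] and -0.17 for [R] against [N]. COQ7, a hydroxylase of ubiquinone synthesis, had 36.8 and 34.8 CPM in [N] and 13.2 and 15.2 in [P] (log2 fold change -1.48, edgeR adjusted p 0.284). The 16 genes of mitochondrial transport and chaperones had -0.59, -0.69, -0.31 and -0.32 in the same order, with TOMM22 at -1.33 in [P] (edgeR adjusted p 0.290) and VDAC3 at -1.09 in [B] (edgeR adjusted p 0.128). The 50 assembly factors had -0.24, -0.39, -0.23 and -0.43. Of 11 regulators of mitochondrial biogenesis 10 were tested, with medians of -0.52, -0.40, -0.11 and -0.06, and TFAM, which packages mitochondrial DNA, was at -1.01 in [B] (edgeR adjusted p 0.110). edgeR called 0 genes of these 5 lists in any of the 8 comparisons. DESeq2 called 0 to 5 genes of a list in each of them.

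Between the lines, SCO2, a copper chaperone of cytochrome c oxidase and a known p53 target, had the smallest p among the assembly factors. Its level from [N] to [R] was 23.6, 35.97, 60.1, 20.7 and 15.1 CPM in p53+/+ cells, and 11.2, 3.63, 17.98, 6.59 and 5.99 CPM in p53-/- cells. The p53-/- sum was lower in all 5 stages, with a log2 fold change of -1.92 (SE 0.32, edgeR adjusted p 0.0520, DESeq2 1.87e-07). Of the 50 assembly factors 13 were lower and 1 higher in p53-/- cells at an unadjusted p under 0.05 (all genes 7% and 6.91%). COQ8A was at -1.34 (edgeR adjusted p 0.0606, DESeq2 2.25e-05) and IDH3G, a subunit of isocitrate dehydrogenase, at -0.81 (edgeR adjusted p 0.0884, DESeq2 0.00173).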

How the data were processed

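The deposited table held raw read counts per gene for 115 single cells, and the authors had made these counts without molecular identifiers. Per the study's methods, fastp trimmed the reads, HISAT2 2.0 aligned them to GRCh38, StringTie estimated expression, and RSEM with Bowtie2 gave FPKM; the counting tool is not given in the sources used here. The submitters' processing notes also list mm10. Groups came from the labels. Adding up the cells of a stage and line gave 10 sums of 146141551 to 891803993 counts. Genes were kept (19894) if they passed edgeR's filter on low counts over the sums (minimum count 10) and had a count in at least 12 cells. Stages were compared with edgeR 4.0.16 (R 4.3.3; robust quasi-likelihood test, TMM scaling, all 10 sums in 1 fit) and adjusted over all genes tested. The lines were compared with stage as a covariate. Values for a single line are log2 CPM differences with a prior count of 2. DESeq2 1.42.0 on the same sums was an alternative. Because all sums of a line come from the same cell line, the sums are paired. The line differences of 10 stage pairs correlated at 0.0740 to 0.216 (across genes). The fit without the block was kept as the main fit because the study's methods, which mention a filter against batch effects without details, name no block. In the stage comparisons p-values measure the spread between the 2 sums of a stage, which differ in p53. In the comparison of the lines they measure how the line difference varies between stages. Cells are not known to be from separate cultures. Intervals and floors cover counting error only.

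Named genes were the 3 highest and 3 lowest members of each comparison, those called by edgeR or DESeq2, the most abundant member of each complex, the isoform pairs, and the gene with the smallest p in each other list. Other genes named (NDUFB8, the members listed at an unadjusted p under 0.05, and values of named genes in further comparisons) were chosen after their values were seen. The members and lists were chosen with earlier results of these data known. The alternatives are given with their effect in the closing section. The fit was tested on simulated counts. Summaries and figures were made with Python 3.11.15, pandas 2.3.3, numpy 2.4.6 and matplotlib 3.10.9. The mitochondrially encoded subunits and the targeted gene itself were not analysed here, and 1 member, which entered every count and median, is not reported singly here.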

Additional observations from a re-analysis of the deposited data

Results flagged for a closer look

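Cells that stood apart from the others of their stage and line were found in 10 of 36 groups of cells tested for all members or for 1 complex. The same cells were tested on each of these measures, and several of the 10 are the same cell. The groups are therefore not independent, and their number cannot be set against a chance rate. In p53-/- [B] cells, 1 cell of prefix 1206 had 73027 CPM in all members against 27957 in the next cell, with 20257 CPM in complex I (next 8821), 11370.0 in complex III (next 3841), 20057 in complex IV (next 7436) and 20859 in complex V (next 8040). In p53-/- [S] cells, the cell of prefix 1206 had 40340 CPM against 28964 in the next. In p53-/- [R] cells, 1 cell had 29472 CPM against 24630 in the next, and 4161 CPM in complex III against 3456. In p53+/+ [P] cells, 1 cell had 1370 CPM in complex II against 1108, and in p53-/- [N] cells 1 cell of prefix 0109 had 13186 CPM in complex V against 10095.

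The lines went opposite ways in several comparisons, and with 1 sum per stage and line these differences were not tested. All values here are log2 CPM differences, p53+/+ first. In [P] versus [N] the medians were -0.77 and 0.55 over all members, -0.81 and 0.47 in complex I, -0.87 and 0.59 in complex III, -0.61 and 0.78 in complex IV and -0.70 and 0.44 in complex V. For [B] against [P] they were 0.66 and -0.39 over all members, 0.64 and -0.49 in complex I, 0.81 and -0.33 in complex III, 0.86 and -0.47 in complex IV and 0.67 and -0.29 in complex V. For [B] against [N] they were -0.13 and 0.04 over all members, -0.089 and 0.11 in complex III and -0.028 and 0.0046 in complex V, and in [S] versus [B] -0.12 and 0.52 in complex II. Both comparisons with [P] include the 4 p53-/- cells of prefix 1206, whose part was measured only by leaving them out.

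Among single genes NDUFB1 gave -0.50 and 1.44 in [P] versus [N]. COX6B2 gave -5.88 and 2.59 there and 3.70 and -2.05 for [B] against [P], from few counts. NDUFC2-KCTD14 gave -0.70 and 2.17 for [P] against [N], 0.22 and -1.03 for [B] against [P], and 0.74 and -1.40 in [S] versus [B]. NDUFA4L2, also from few counts, gave -0.27 and 4.64 in [B] versus [N] and -1.20 and 7.06 for [R] against [N]. SDHA gave 0.44 and -0.03 in [R] versus [N], NDUFAB1 0.52 and -1.22 in [B] versus [P], and ATP5MD 0.14 and -0.57 in [S] versus [B].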

How the results depend on the processing

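The 8 counts of members called were 0 by edgeR. DESeq2 called 2, 7 and 1 when [P], [B] and [S] were compared with [N], and 6 between the lines. The line as a replicate block called 3 in [B] versus [N] and changed no other call of a stage comparison. Without a filter on low counts edgeR called 1 for [B] and 1 for [S] against [N], 2 for [R] against [S], and 1 between p53-/- and p53+/+ cells. For the latter it called 10 on sums per name prefix and 1 without prefix 1206, an alternative chosen after seeing the data. The median of the members in [B] versus [N] was -0.15 in thinned cells (15435056 counts each, 12 shallower cells left out) and 0.52 on sums per name prefix, and in [S] versus [N] -0.14 and 0.59. In [S] versus [B] it was 0.025 with library size as the only scaling, and 0.53, -0.073, -0.97, -0.25, -0.059 and 0.55 within 6 of 7 name prefixes of p53+/+ cells and -0.495 and 0.57 within 2 of 4 of p53-/- cells. COX6B2 in [P] versus [N] was -1.20 with the line as a block. Leaving out 1 sum at a time gave medians of -0.48 to 0.26 for [P], -0.29 to 0.38 for [B], -0.33 to 0.48 for [S] and -0.82 to -0.21 for [R] against [N]. They were -0.20 to 0.46 for [B] against [P], -0.26 to 0.44 for [S] against [B] and -1.04 to -0.30 for [R] against [S]. Between the lines they were -0.44 to -0.13. Only the comparisons with [R] and that of the lines kept their sign. Leaving out a sum left an arm with 1 sum, which is assumed to vary like the others, and called 0 members in each case. It turned NDUFB1 (-0.35 to 1.32), COX6B2 (-6.05 to 2.17) and NDUFC2-KCTD14 (-0.45 to 1.93) in [P] versus [N], ATP5MGL (-7.73 to 0.0) and NDUFA4L2 (-0.29 to 10.23) in [R] versus [N], COX6B2 (-3.05 to 5.54), NDUFC2-KCTD14 (-1.5005 to 0.93), NDUFAB1 (-0.87 to 0.14) and ATP5F1D (-0.028 to 1.06) in [B] versus [P], NDUFC2-KCTD14 (-0.98 to 0.33) and ATP5MD (-0.58 to 0.10) in [S] versus [B], and NDUFA4L2 (-5.63 to 0.93) in [R] versus [S]. The causes were not tested. The remaining alternatives, among them a minimum count of 100 and leaving out 8 cells, left these counts and medians within their spread.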
